A study of Mus musculus with 12 samples.

Results

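The genes described here encode the subunits of oxidative phosphorylation, the process by which mitochondria turn the electrons of fuel molecules into ATP. They were taken from a table of gene expression in mouse liver as the protein-coding rows whose symbols name a subunit of complex I (Nduf genes without the assembly factors, and mt-Nd), II (Sdh), III (Uqcr, Cyc1 and mt-Cytb), IV (Cox and mt-Co) or V (Atp5 and mt-Atp). Each had to reach 1 FPKM in at least 3 of the 12 libraries. FPKM is the number of sequenced fragments of a gene, scaled to the length of its exons and to the fragments of the library. The members were thus chosen by symbol and by their FPKM, and the level itself is not a finding. Of the 54532 gene IDs in the table, 100 matched the symbols and 92 passed the level. These 92 members were 38 nuclear and 7 mitochondrial genes of complex I, 4 nuclear genes of complex II, 9 nuclear genes and 1 mitochondrial gene of complex III, 11 and 3 of complex IV, and 17 and 2 of complex V, in all 79 nuclear and 13 mitochondrial genes.

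All 12 libraries came from the liver of wild-type (WT) C57BL/6J mice, 3 in each of 4 groups. The groups were CD, a diet that the labels do not spell out, HFD, a high-fat diet as the series title names it, and each of these diets with 2% DSS (dextran sulfate sodium, an agent used to induce colitis in mice), written CD_DSS and HFD_DSS below. Route and length of DSS exposure, age and sex are not given. Nothing in the labels ties each library to an animal of its own. The p-values therefore measure the spread between these libraries, which may be technical.

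Complex I takes electrons from NADH and complex II from succinate, complex III passes them to cytochrome c, and complex IV hands them to oxygen, while complexes I, III and IV pump protons that drive ATP synthesis by complex V. Complex II is made of nuclear-encoded proteins alone, and the other complexes combine subunits from the nuclear genome with subunits made inside the mitochondrion from its own circular genome. Hepatocytes are rich in mitochondria, which burn fatty acids and supply the ATP and carbon for gluconeogenesis and urea synthesis.

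The libraries held 23.4 to 29.4 M fragments, and values of libraries of 1 group correlated at r of 0.972 to 0.989 across genes. Hepatocyte markers summed to 41047 to 45040 FPKM per library in CD, 34238 to 38964 in HFD, 46200 to 49745 in CD_DSS and 25102 to 46363 in HFD_DSS. No muscle or T and NK cell marker reached the level for testing. HFD 1, CD_DSS 1 and HFD_DSS 2 stood apart from the other libraries of their groups in a list of 6 acute phase genes, with a median log2 deviation from the mean over all libraries of 0.96 in HFD 1 against -2.78 and -2.81 in HFD 2 and 3. It was -2.14 in CD_DSS 1 against 2.23 and 2.10 in the other CD_DSS libraries, and 0.58 in HFD_DSS 2 against 3.48 and 4.21 in the other HFD_DSS libraries. Macrophage and Kupffer cell markers summed to 279 to 347 FPKM in CD, 274 to 440 in HFD, 311 to 573 in CD_DSS and 372 to 538 in HFD_DSS, and 4 of the 10 rose with DSS over both diets, where 8.72% of all genes tested rose and 11.2% fell. The 4 neutrophil markers tested summed to 1.71 to 3.15 FPKM in CD, 1.90 to 23.6 in HFD, 3.89 to 23.6 in CD_DSS and 5.34 to 57.6 in HFD_DSS, and 0 of them were called. Of the endothelial, stellate and cholangiocyte markers 2 of 6, 1 of 6 and 1 of 3 rose, of the hepatocyte and red cell markers 1 of 6 and 1 of 4 fell, the 1 B cell marker tested was not called, and 4 of the 6 acute phase genes rose. The part of these cells and of the acute phase state in the results below was not tested. In bulk tissue, fewer cells of a type and less RNA per cell cannot be told apart.

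Together the 13 mitochondrial members held 4.19 to 4.72% of all fragments in CD and 4.68 to 4.75% in HFD, against 3.04 to 3.502% in CD_DSS and 3.43 to 3.81% in HFD_DSS. The 79 nuclear members held 0.997 to 1.10% in CD and 0.993 to 1.14% in HFD, against 0.777 to 0.951% in CD_DSS and 0.748 to 0.880% in HFD_DSS. On both diets, and for both genomes, every library with DSS lay under every library without it in these shares. In the share of summed FPKM the nuclear members overlapped, with CD_DSS 1 at 1.39% and HFD 3 at 1.35%.

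With DSS, averaged over both diets, 53 of the 92 members fell and 0 rose (limma, Benjamini-Hochberg adjusted p under 0.05), on a background of 11.2% of the 10806 genes tested that fell and 8.72% that rose. The median log2 fold change of FPKM + 1 was -0.30 over the members, a level 18.7% lower, and -0.01 over all genes tested, and 89 of the 92 members had a negative value against 51.8% of all genes. Here and below, a fall or rise is given on the log2 scale of FPKM + 1 unless a percentage is named. The members with the largest fall were the complex IV gene mt-Co1 and the complex I gene Ndufb3, at 32.5% below their level without it. Of the nuclear members 49 of 79 fell (median -0.30), and of the mitochondrial members 4 of 13 (median -0.23). In 25 members all 6 libraries with DSS lay under all 6 without it, and in 0 they lay above, on a background of 3.85% of genes lying under and 2.74% above. When each of the 12 libraries was left out in turn, the count of members that fell lay between 36 and 62, with 6.97 to 13.5% of all genes, and 34 of the 53 were called each time. Without HFD 1, CD_DSS 1 and HFD_DSS 2 it was 47, of which 45 were among the 53, while the share of all genes that fell was higher, at 17.4%. Under a scaling to equal FPKM sums (TPM) it was 39, against 6.74% of all genes that fell, and under a scaling to the nuclear genome 45, against 7.65%.

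**Figure D1:**
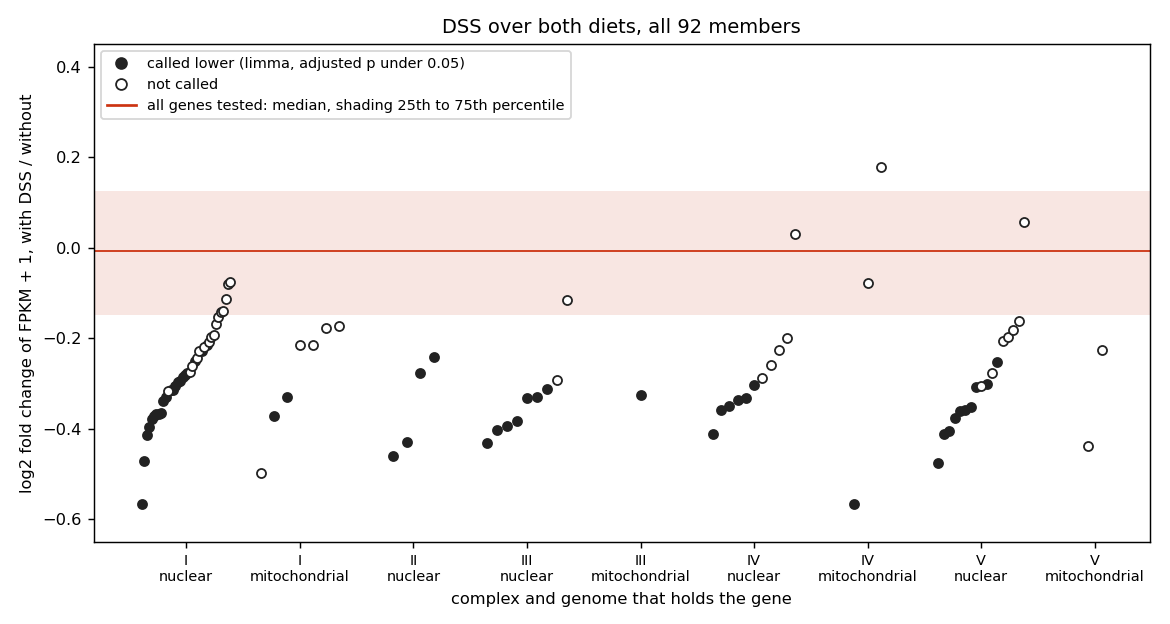
Each point is 1 of the 92 members, placed by its complex and genome (x axis) and by its log2 fold change of FPKM + 1 with DSS against without, averaged over both diets (y axis). Filled points fell (limma adjusted p under 0.05), the line and shading give the median and the 25th to 75th percentile of all genes tested, and 89 of the 92 points lie under 0.

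Complex I, the largest of the complexes, had 22 of its 38 nuclear members fall, with a median log2 fold change of -0.28 and a range of -0.57 to -0.08. Ndufb3, a small accessory subunit of the membrane arm (chr1:58586384-58595964, mm10, plus strand), had 31.8, 39.7 and 45.8 FPKM in CD and 50.8, 47.6 and 34.5 in HFD. With DSS the CD_DSS libraries had 27.4, 31.3 and 23.1 and the HFD_DSS libraries 23.3, 30.5 and 30.4. All 6 libraries with DSS were under all 6 without it, and Ndufb3 fell by 0.57 (SE 0.13, limma adjusted p = 0.0122). Ndufb5, another accessory subunit (chr3:32736990-32751566, plus strand), had 12.1, 12.3 and 13.2 FPKM in CD and 12.8, 11.6 and 11.1 in HFD. In CD_DSS the values were 10.7, 10.3 and 9.35, and in HFD_DSS 9.07, 8.60 and 8.55. Its libraries also did not overlap, and it fell by 0.34 (SE 0.06, limma adjusted p = 0.00342). It shares 12.3% of its exon bases with Mrpl47 on the opposite strand, and the strand setting of the counting is not given.

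Ndufb9, which like Ndufb3 and Ndufb5 belongs to the membrane arm, had 62.0, 64.2 and 71.3 FPKM in CD and 74.8, 74.3 and 58.6 in HFD. Under DSS it stood at 55.0, 52.7 and 49.3 on CD and at 49.96, 48.1 and 46.8 on HFD. It fell by 0.41 (SE 0.08, limma adjusted p = 0.00521), again with no overlap. Ndufc2 fell by 0.40 (SE 0.09, limma adjusted p = 0.0104) and Ndufa10 by 0.31 (SE 0.06, limma adjusted p = 0.00697). Ndufa5, a subunit of the peripheral arm, overlapped between the conditions, with 22.1 to 34.3 FPKM without DSS and 16.4 to 23.9 with it, and it fell by 0.47 (SE 0.13, limma adjusted p = 0.0297). The call was lost when any 1 of 6 libraries was left out (CD 2, CD 3, HFD 1, HFD 2, CD_DSS 3 or HFD_DSS 1, adjusted p up to 0.0745). Ndufb4 (-0.29, SE 0.09, limma adjusted p = 0.043) lost its call in 9 of the 12 omissions, those of CD 2, CD 3, HFD 1, HFD 2, CD_DSS 2, CD_DSS 3 and any HFD_DSS library, with adjusted p up to 0.0935.

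The electron-carrying core of complex I was represented by Ndufv1, which binds the flavin that accepts electrons from NADH, and by the iron-sulfur subunit Ndufs1. Ndufv1 had 58.5, 61.5 and 70.0 FPKM in CD and 63.7, 71.6 and 63.6 in HFD. The CD_DSS libraries had 57.2, 52.3 and 53.2 and the HFD_DSS libraries 45.5, 51.2 and 53.9. Ndufv1 fell by 0.31 (SE 0.07, limma adjusted p = 0.013). Ndufs1 ranged from 11.3 to 16.5 FPKM without DSS and from 9.42 to 13.5 with it, so the libraries overlapped. Its log2 fold change of -0.32 (SE 0.11) did not pass (limma adjusted p = 0.0568).

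Ndufa4, named as a complex I gene and now regarded as a subunit of complex IV, fell by 0.37 (SE 0.09, limma adjusted p = 0.0194), with adjusted p = 0.0524 when HFD 2 was left out. Its paralog Ndufa4l2, a hypoxia-responsive gene that is not a core subunit, was the member just inside the level, with at least 1 FPKM in 5 libraries and 0.551 to 1.43 FPKM over all 12. Those were CD 1, CD 2, HFD 2 and HFD 3 without DSS, and with DSS only CD_DSS 2. Ndufa4l2 thus passed the level through the libraries without DSS. It is counted among the members and those with a negative value, but its change is no support for a fall. The other 91 members reached 1 FPKM in all 12 libraries. Ndufa12 varied widely within groups, with 6.91, 6.56 and 11.0 FPKM in CD, 21.0, 7.34 and 7.00 in HFD, 17.5, 6.31 and 5.96 in CD_DSS and 10.4, 4.58 and 11.6 in HFD_DSS. HFD 1 and CD_DSS 1 stood far above the other libraries of their groups, and 17.7% of the 50-base stretches of its exons also occur in the processed pseudogene Gm15920, so its values are uncertain.

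In complex II, which is also the succinate dehydrogenase of the tricarboxylic acid cycle, all 4 members fell, with a median log2 fold change of -0.35. Sdhb, its iron-sulfur subunit (chr4:140961203-140979193, plus strand), had 67.8, 75.7 and 79.1 FPKM in CD and 74.9, 87.7 and 75.2 in HFD. With DSS the CD_DSS libraries had 60.8, 60.2 and 52.7 and the HFD_DSS libraries 53.0, 52.5 and 53.5. Every library with DSS was under every library without it, and Sdhb fell by 0.46 (SE 0.07, limma adjusted p = 0.00231), to a level 27.3% lower. Sdha, the flavoprotein that oxidises succinate, had 141, 153 and 153 FPKM in CD and 117, 156 and 143 in HFD. In CD_DSS the values were 122, 103 and 105, and in HFD_DSS 85.8, 117 and 107. Here HFD 1 lay among the libraries with DSS, and Sdha fell by 0.43 (SE 0.10, limma adjusted p = 0.0122). The membrane anchors Sdhd and Sdhc fell by 0.28 (SE 0.07) and 0.24 (SE 0.06), with limma adjusted p = 0.0179 and 0.0201.

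In complex III, 7 of the 9 nuclear members fell, with a median of -0.33 and a range of -0.43 to -0.12. Cyc1, the cytochrome c1 haem protein (chr15:76343523-76346260, plus strand), had 89.4, 96.0 and 105 FPKM in CD and 94.8, 105 and 90.1 in HFD. Under DSS it stood at 85.3, 71.8 and 70.0 on CD and at 62.8, 74.2 and 65.1 on HFD. Its libraries did not overlap, and it fell by 0.43 (SE 0.08, limma adjusted p = 0.00514). Uqcrc1, a large core protein of the complex, had 54.2, 63.4 and 63.5 FPKM in CD and 58.3, 67.3 and 62.9 in HFD. The CD_DSS libraries had 53.2, 47.0 and 48.8 and the HFD_DSS libraries 40.6, 48.4 and 44.3. Uqcrc1 fell by 0.38 (SE 0.07, limma adjusted p = 0.00578), again without overlap. Uqcrfs1, the Rieske iron-sulfur protein, fell by 0.33 (SE 0.07, limma adjusted p = 0.0101), and Uqcr10, a small subunit, by 0.40 (SE 0.09, limma adjusted p = 0.0129). Uqcrb fell by 0.39 (SE 0.10, limma adjusted p = 0.0216). It lost its call without CD 2, CD_DSS 2, CD_DSS 3 or HFD_DSS 1 (adjusted p up to 0.0562), and shares 25.5% of its 50-base stretches with other genes. The small subunits Uqcr11 (-0.29, limma adjusted p = 0.0841) and Uqcrq (-0.12, limma adjusted p = 0.41) did not pass.

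In complex IV, cytochrome c oxidase, 6 of the 11 nuclear members fell, with a median of -0.30 and a range of -0.41 to 0.03. Cox7a2, the liver-type member of its isoform pair (chr9:79755361-79759878, minus strand), had 93.1, 110.0 and 115 FPKM in CD and 126, 108 and 90.4 in HFD. With DSS the CD_DSS libraries had 92.2, 82.7 and 67.1 and the HFD_DSS libraries 78.2, 83.7 and 77.1. Only CD_DSS 1 reached above HFD 3, the lowest library without DSS, and Cox7a2 fell by 0.41 (SE 0.10, limma adjusted p = 0.0187). Cox6a1, with the highest mean level of the nuclear members, had 345, 388 and 396 FPKM in CD and 420.1, 408 and 317 in HFD. In CD_DSS the values were 319, 320.2 and 269, and in HFD_DSS 283, 287 and 323. HFD 3 lay among the libraries with DSS, and Cox6a1 fell by 0.33 (SE 0.09, limma adjusted p = 0.029). It was not called without any 1 of CD 2, CD 3, HFD 1, HFD 2, CD_DSS 3 or HFD_DSS 1 (adjusted p up to 0.0729). Cox8a fell by 0.30 (SE 0.09, limma adjusted p = 0.029) and lost its call in 6 omissions (CD 2, CD 3, HFD 2, CD_DSS 3, HFD_DSS 1 and HFD_DSS 2, adjusted p up to 0.0731). Cox6b1 (-0.34, SE 0.08, limma adjusted p = 0.0128) kept its call in all 12.

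Cox4i1, an early-assembling subunit that binds ATP, overlapped between the conditions, with 183 to 230.0 FPKM without DSS and 159 to 191 with it, and its log2 fold change of -0.20 (SE 0.08) did not pass (limma adjusted p = 0.116). Cox7a2l, which helps to join complexes III and IV and is not a core subunit, had a log2 fold change of 0.03 (SE 0.09, limma adjusted p = 0.847). The heart, muscle, lung and testis isoforms of this complex were the rows that matched the symbols without reaching the level. Cox4i2, Cox6a2, Cox6b2 and Cox8b were at most 0.243, 0.246, 0.696 and 0.232 FPKM in any library, and Cox7b2 and Cox8c were listed at 0 in all 12, as was a second gene ID with the symbol Atp5o. Cox7a1, the heart and muscle partner of Cox7a2, lay just outside, with 1 library at or above 1 FPKM (CD_DSS 2) and a range of 0.172 to 1.67.

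In complex V, the ATP synthase, 10 of the 17 nuclear members fell, with a median of -0.31 and a range of -0.48 to 0.06. Atp5c1, the central shaft of the catalytic head (chr2:10056016-10080510, minus strand), had 109.9, 116 and 124 FPKM in CD and 109, 123 and 105 in HFD. Under DSS it stood at 101, 94.98 and 85.3 on CD and at 78.1, 83.5 and 76.3 on HFD. Its libraries did not overlap, and it fell by 0.41 (SE 0.07, limma adjusted p = 0.00421), to a level 24.5% lower. Atp5g3, which encodes the ring subunit that protons turn (chr2:73908447-73911326, minus strand), had 125, 143 and 144 FPKM in CD and 153, 160.3 and 134 in HFD. The CD_DSS libraries had 116, 109.9 and 100.5 and the HFD_DSS libraries 101, 107 and 109. It fell by 0.41 (SE 0.07, limma adjusted p = 0.00434), also without overlap.

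The subunits that form the catalytic head, Atp5a1 (alpha) and Atp5b (beta, which holds the catalytic sites), fell by 0.38 (SE 0.07, limma adjusted p = 0.007) and 0.36 (SE 0.08, limma adjusted p = 0.00889), and in both every library with DSS lay under every library without it. Atp5k, a membrane subunit that takes part in pairing of the enzyme, had 20.6, 28.4 and 30.1 FPKM in CD and 24.7, 31.5 and 24.2 in HFD. With DSS the CD_DSS libraries had 16.1, 22.3 and 14.1 and the HFD_DSS libraries 18.8, 17.9 and 24.6. CD_DSS 2 and HFD_DSS 3 lay above CD 1, and Atp5k fell by 0.48 (SE 0.14, limma adjusted p = 0.0323). It was not called without any 1 of CD 2, CD 3, HFD 2, CD_DSS 3, HFD_DSS 1 or HFD_DSS 2 (adjusted p up to 0.0799). Atp5s, which matches the symbols and is not a subunit of the working enzyme, was at 1.37 to 3.21 FPKM, with a log2 fold change of 0.06 (SE 0.11).

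**Figure D2:**
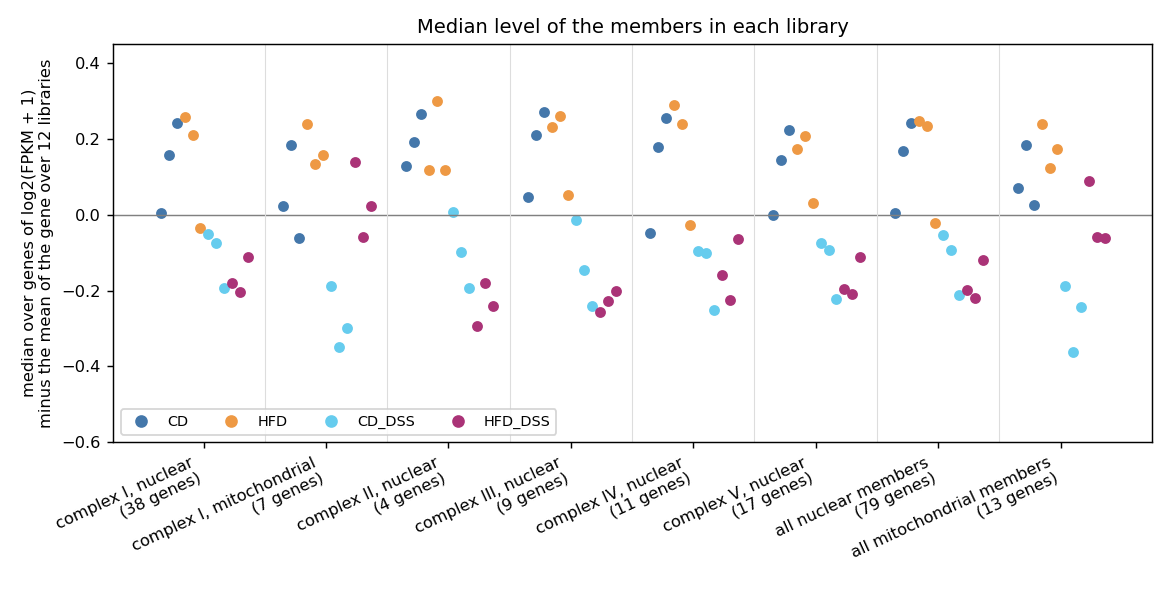
Each point is 1 library, and its height is the median over the genes of a set of log2(FPKM + 1) minus the gene's mean over the 12 libraries; complexes with 1 to 3 mitochondrial genes are not drawn on their own. In the set of all 79 nuclear members, the 6 libraries with DSS lie between -0.22 and -0.05, and those without DSS between -0.02 (HFD 3) and 0.25.

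The mitochondrial genome, which is transcribed as long precursors that are then cut into messenger RNAs, gave the most abundant members. mt-Co1, the catalytic subunit of complex IV (chrM:5328-6872, plus strand), had 13684, 15844 and 14876 FPKM in CD and 14079.7, 15925 and 15367 in HFD. In CD_DSS the values were 9768, 10353 and 10473, and in HFD_DSS 9581, 10543 and 9818. The highest library with DSS was under the lowest without it, and mt-Co1 fell by 0.57 (SE 0.09, limma adjusted p = 0.00319). It was called when any 1 library was left out. It was not called with no filter on low values, when all 25911 genes above 0 in any library were tested (limma adjusted p = 0.435). mt-Nd3, a membrane subunit of complex I, had 122, 141 and 155 FPKM in CD and 145, 120.2 and 114 in HFD. Under DSS it stood at 102, 98.3 and 97.8 on CD and at 109, 111 and 93.9 on HFD. The libraries did not overlap, and mt-Nd3 fell by 0.37 (SE 0.09, limma adjusted p = 0.0128).

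The other mitochondrial members that fell were mt-Nd1 and mt-Cytb. mt-Nd1, the subunit of complex I next to the quinone site, had 3867, 4442 and 4197 FPKM in CD and 5115, 4171 and 3902 in HFD. The CD_DSS libraries had 3300.5, 2985 and 2537 and the HFD_DSS libraries 4189, 3758 and 3875. HFD_DSS 1 and HFD_DSS 3 lay among the libraries without DSS, and mt-Nd1 fell by 0.33 (SE 0.10, limma adjusted p = 0.0459). It lost its call in 10 of the 12 omissions, all but those of HFD 3 and CD_DSS 1, with adjusted p up to 0.107. mt-Cytb, the cytochrome b of complex III, had 5255, 6271 and 5386 FPKM in CD and 6560.4, 6254 and 5970.1 in HFD. With DSS the CD_DSS libraries had 5137, 4118 and 3862 and the HFD_DSS libraries 5535, 5022 and 4917. HFD_DSS 1 lay above CD 1 and CD 3, and mt-Cytb fell by 0.33 (SE 0.10, limma adjusted p = 0.0432). It lost its call in every omission but that of CD_DSS 1, with adjusted p up to 0.109. With no filter on low values, neither mt-Nd1 (limma adjusted p = 0.369) nor mt-Cytb (limma adjusted p = 0.467) was called.

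The remaining 9 mitochondrial members were not called. mt-Nd2, mt-Nd4, mt-Nd5 and mt-Nd6 had log2 fold changes of -0.18, -0.22, -0.22 and -0.17 with standard errors of 0.10 to 0.12. mt-Atp8 (-0.23, SE 0.11, limma adjusted p = 0.15), which overlaps mt-Atp6, was listed at 1.64 to 3.82 FPKM, the lowest of the mitochondrial genes. mt-Atp6, the proton channel of complex V, had 318, 389 and 179 FPKM in CD, 443, 198 and 345 in HFD, 337, 136 and 185 in CD_DSS and 218, 274 and 213 in HFD_DSS, so that each group held values far apart (-0.44, SE 0.27, limma adjusted p = 0.274). mt-Co3, another core subunit of complex IV, was spread further, at 315, 199 and 265 FPKM in CD, 254, 227 and 184 in HFD, 147, 187 and 398 in CD_DSS and 485, 585 and 119 in HFD_DSS, and its log2 fold change of 0.18 had an SE of 0.37.

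**Figure D3:**
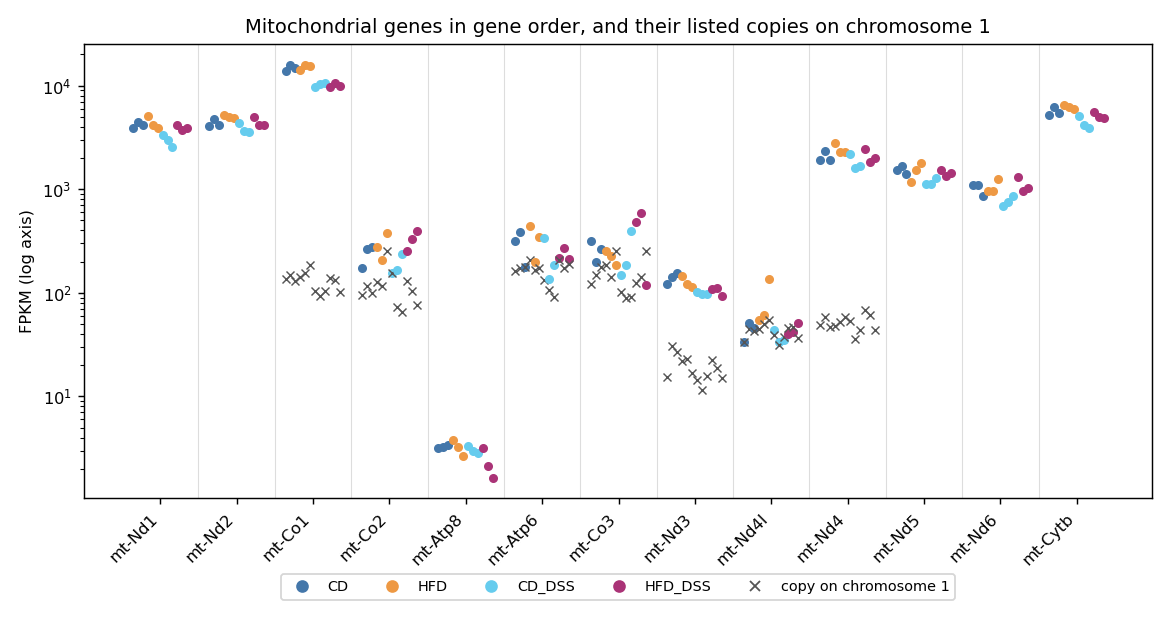
Points give the FPKM (log axis) of the 13 mitochondrial members in each of the 12 libraries, in the order of the genes along the mitochondrial genome, and crosses give the FPKM of the 7 listed chromosome 1 copies. mt-Co1 separates by DSS, while mt-Co3, mt-Atp6, mt-Co2 and mt-Nd4l spread within groups and lie near the level of their copies.

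The annotation lists a copy of 7 of these genes, wholly or in part, on the minus strand of chromosome 1 between bases 24611535 and 24616197 (mm10), named there as pseudogenes with FPKM values of their own. Stretches of 60 bases are shown for mt-Nd3 and mt-Co1, where the copies as annotated hold letters that differ from the genes. The stretch for mt-Co2 is the same in gene and copy. Each is written in the gene's own direction, and capitals mark the bases that differ. They come from chrM:9459-9518, chrM:6381-6440 and chrM:7323-7382 (plus strand) and chr1:24613060-24613119, chr1:24616138-24616197 and chr1:24615196-24615255 (minus strand).
mt-Nd3: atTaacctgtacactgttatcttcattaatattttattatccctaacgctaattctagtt
Gm28438, copy of mt-Nd3: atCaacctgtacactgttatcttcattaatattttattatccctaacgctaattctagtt
mt-Co1: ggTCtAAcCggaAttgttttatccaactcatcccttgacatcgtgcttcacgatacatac
Gm29216, copy of mt-Co1: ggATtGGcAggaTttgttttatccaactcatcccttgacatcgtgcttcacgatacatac
mt-Co2 and its copy Gm28661: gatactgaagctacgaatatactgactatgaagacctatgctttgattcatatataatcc

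Counted from 1 at the first base of the mitochondrial gene, the mt-Nd3 copy differs by T3C over 345 aligned bases. The annotated mt-Co1 copy was aligned without gaps over 492 bases, from base 1054 of the gene. The letters that differ are T1056A, C1057T, A1059G, A1060G, C1062A and A1066T. All 6 lie at that end of the alignment. They may thus be sequence beside the copy and not base changes within it, which was not tested. Of the 50-base stretches of the gene, the chromosome 1 copies hold 28.7% for mt-Co1, 62.2% for mt-Nd4 and 98.0 to 99.9% for mt-Nd3, mt-Nd4l, mt-Atp6, mt-Co2 and mt-Co3, so a fragment from most of these last 5 genes cannot be assigned by its sequence. Over all other genes, 51.1% of the stretches of mt-Co1 occur elsewhere, in 3 genes. How the authors counted such fragments is not given. The copy of mt-Co1 was listed at a mean of 131 FPKM against 12526 for the gene, whereas the copies of mt-Nd4l, mt-Atp6, mt-Co3 and mt-Co2 had means of 42.2, 163, 152 and 118 FPKM against 52.1, 269, 280 and 259 for the genes.

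Across the 12 libraries, the coefficient of variation was 12.2 to 19.9% for the 6 mitochondrial members with no copy listed on chromosome 1. Of the 7 with a copy, 3 were within or next to that range, at 16.5% for mt-Nd4, 17.1% for mt-Nd3 and 21.0% for mt-Co1. The other 4 were above it, at 52.9% for mt-Nd4l, 50.6% for mt-Co3, 35.6% for mt-Atp6 and 30.3% for mt-Co2. The part of the copies in this spread was not tested. With the fragments of the copy added to the gene, the coefficient was 35.0%, 30.8%, 26.8% and 27.7% for the last 4 genes. The sum left the calls as they were: mt-Co1 fell by 0.57 (limma adjusted p = 0.00318) and mt-Nd3 by 0.38 (limma adjusted p = 0.0156) over both diets, while the sums for mt-Nd4l (-0.37), mt-Atp6 (-0.38), mt-Co2 (-0.14) and mt-Co3 (0.04) did not pass.

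On the CD diet alone, 2 members fell with DSS and 0 rose, both from the mitochondrial genome, on a background of 2.79% of the genes tested that fell and 2.01% that rose. These were mt-Co1 (-0.54, SE 0.13, limma adjusted p = 0.0445) and mt-Nd3 (-0.48, SE 0.12, limma adjusted p = 0.0483). As a share, 2 of the 92 members was not above the share of all genes that fell. The median log2 fold change was -0.26 over the nuclear members, 76 of 79 of them negative, and -0.37 over the mitochondrial members, 13 of 13 negative. In 47 members the 3 CD_DSS libraries all lay under the 3 CD libraries and in 0 above, on a background of 14.4% of genes lying under and 12.6% above. At an unadjusted p under 0.05 there were 45 of the 92 members, in either direction, and 23.6% of all genes. The nuclear members closest to a call were Atp5d, the delta subunit of ATP synthase (-0.30, SE 0.08, limma adjusted p = 0.058), and Sdhb (-0.35, SE 0.10, limma adjusted p = 0.0644). The number called was 15 without CD_DSS 1, where 6.2% of all genes fell, and 3 without HFD 1 (3.16%). It was 1 without HFD_DSS 1 (2.49%) or HFD_DSS 2 (3.02%), and 0 without any 1 of the other 8 libraries (0.379 to 2.16%). It was 23 without HFD 1, CD_DSS 1 and HFD_DSS 2 together, where 9.51% of all genes fell. Under a scaling to equal FPKM sums (TPM) or to the nuclear genome it was 0, with 1.34% and 1.5% of all genes.

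On the HFD diet alone, 13 members fell with DSS and 0 rose, on a background of 3.1% of genes that fell and 1.73% that rose. They were mt-Co1 and 12 nuclear genes from every complex but IV: Sdhb, Cyc1, Uqcrc1, Ndufb9, Ndufb5, Ndufv1, Ndufa10, Atp5c1, Atp5g3, Atp5o, Atp5a1 and Atp5d, with log2 fold changes between -0.60 (mt-Co1) and -0.32 (Atp5d). Sdhb fell by 0.57 (SE 0.10, limma adjusted p = 0.0149), Uqcrc1 by 0.49 (SE 0.10, limma adjusted p = 0.0272) and Atp5c1 by 0.49 (SE 0.10, limma adjusted p = 0.0261). The median was -0.34 over the nuclear members, 77 of 79 of them negative, and -0.24 over the mitochondrial members, 10 of 13 negative. In 53 members the HFD_DSS libraries all lay under the HFD libraries and in 0 above, on a background of 14.7% of genes lying under and 12.4% above. Without HFD 2, HFD_DSS 1 or HFD_DSS 3 the number called was 0, and of all genes 0.0555%, 0.185% and 0.241% fell. Without CD_DSS 1 it was 27, with 5.04% of all genes. Without CD 2 or HFD 3 it was 6 (1.72% and 0.731% of all genes), and without CD_DSS 2 or CD_DSS 3 it was 8 (2.19% and 2.51%). Without HFD 1, CD_DSS 1 and HFD_DSS 2 together it was 18, with 10.7% of all genes. It was 3 under a scaling to equal FPKM sums (TPM) and 5 under a scaling to the nuclear genome, with 1.13% and 1.28% of all genes.

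The 2 diets shared no library in these comparisons, and the difference between their DSS effects was tested as an interaction. No member passed (0 of 92 by limma and by voom, on a background of 0.00925% of genes in either direction), and 0 members by limma and 1 by voom had an unadjusted p under 0.05, against 4.93% of all genes by limma. The lowest p was that of Ndufb4, an accessory subunit of complex I, with a log2 fold change of -0.10 on CD and -0.49 on HFD, a difference of -0.40 (interval at 95% of -0.80 to 0.0029, limma adjusted p = 1.00). For mt-Nd1 the effects were -0.51 on CD (limma adjusted p = 0.074) and -0.15 on HFD. The median difference was -0.08 over the nuclear members, 67 of 79 negative, and 0.09 over the mitochondrial members, 4 of 13 negative, but without HFD 1, CD_DSS 1 and HFD_DSS 2 the number of negative nuclear members was 32.

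**Figure D4:**
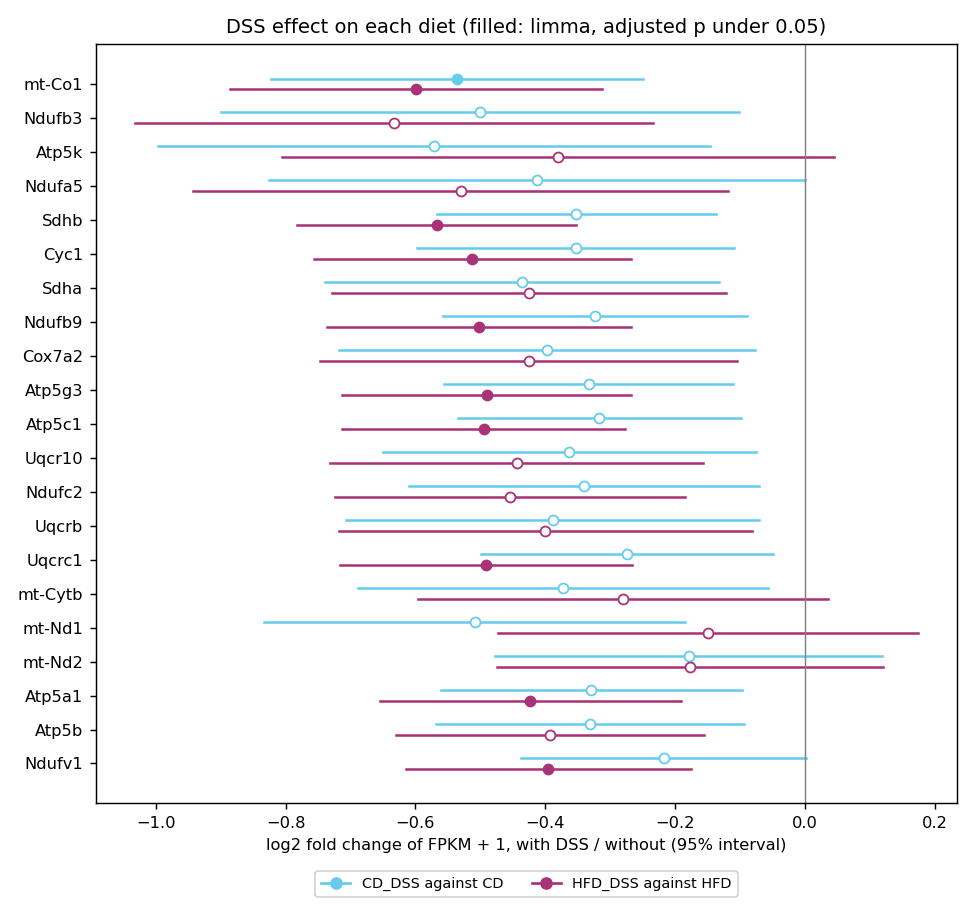
Log2 fold change of FPKM + 1 with DSS against without (x axis, with 95% intervals) for named members (y axis), on the CD diet and on the HFD diet. Filled points fell on that diet (limma adjusted p under 0.05), all points lie under 0, and the intervals of both diets overlap for every gene drawn.

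Without DSS, the diets were compared directly, HFD against CD. No member was called (0 of 92 by limma and by voom, on a background of 0.00925% of genes in either direction), and 1 member had an unadjusted p under 0.05 by limma and 1 by voom, against 6.72% of all genes by limma. That member in the limma test was mt-Nd4l, with 33.6, 50.8 and 45.6 FPKM in CD and 54.5, 61.7 and 135 in HFD. HFD 3 stood far above the others, and the log2 fold change of 0.83 (SE 0.29) did not pass (limma adjusted p = 0.556). The HFD libraries lay above the CD libraries in 3 members, mt-Nd2, mt-Nd4l and Atp5g2, on a background of 6.58% of genes. They lay under them in 0 members, on a background of 6.54%. The median over the nuclear members was 0.03, with 26 of 79 negative, and that count ran from 9 to 55 as each library was left out. Over the mitochondrial members the median was 0.07, with 4 of 13 negative, and that count ran from 3 to 6.

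Under DSS, HFD_DSS against CD_DSS, again no member was called (0 of 92 by limma and by voom, on a background of 0.102% of genes in either direction), with 5 members at an unadjusted p under 0.05 by limma and 6 by voom, against 10.8% of all genes by limma. The medians of the genomes took different signs. Of the mitochondrial members 11 of 13 were higher in HFD_DSS, with a median of 0.24. The exceptions were mt-Co1, the most abundant member, with means of 9981 FPKM in HFD_DSS and 10198 in CD_DSS, and mt-Atp8, with 2.31 and 3.05. Of the nuclear members 56 of 79 were lower, with a median of -0.05, and the median over all genes was -0.00. The count of negative mitochondrial members was 2 under all 3 other scalings and 2 or 3 when each library was left out, with medians of 0.16 to 0.34. The count of negative nuclear members was less stable, at 46 to 64 of 79 when each library was left out, with medians of -0.11 to -0.02, and at 43 in the lowest of all settings tried. The difference between the genomes was not tested, and the mitochondrial members other than mt-Nd6 are cut from a shared precursor.

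In mt-Nd6, the subunit of complex I encoded on the other strand of the mitochondrial genome, HFD_DSS had 1299, 962 and 1036 FPKM, above 693, 746 and 867 in CD_DSS, a difference of 0.51 (SE 0.17, limma adjusted p = 0.296). mt-Co2, which receives electrons from cytochrome c, had 255, 329 and 393 FPKM in HFD_DSS and 154, 165 and 237 in CD_DSS (0.81, SE 0.26, limma adjusted p = 0.292). mt-Nd1 also had HFD_DSS libraries above CD_DSS ones, as listed above (0.43, SE 0.15, limma adjusted p = 0.309), and so did mt-Nd5. These were the 4 members with HFD_DSS wholly above CD_DSS, on a background of 7.53% of genes. HFD_DSS lay wholly under CD_DSS in 5 nuclear members, Ndufb4, Ndufb5, Ndufb8, Sdhc and Atp5c1, on a background of 8.97%. In Atp5c1 the HFD_DSS values of 78.1, 83.5 and 76.3 FPKM were all under the CD_DSS values of 101, 94.98 and 85.3, with a log2 fold change of -0.23 (limma adjusted p = 0.422).

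Genes that serve the same pathway without being subunits were read from lists, with DSS over both diets and the same background of 11.2% of genes that fell and 8.72% that rose. When only genes averaging 5 FPKM or more were tested, 17.3% fell. The lists here and below were not compared with genes of a matched level. Of 14 enzymes of the tricarboxylic acid cycle, which feeds NADH to complex I, 6 fell and 0 rose (median -0.21), among them the citrate synthase gene Cs (-0.48, limma adjusted p = 0.0249) and Idh3a (-0.45, limma adjusted p = 0.0159), a subunit of isocitrate dehydrogenase. Of 24 electron and nucleotide carriers, coenzyme Q synthesis genes and inhibitors, 12 fell and 1 rose (median -0.21). Coq8a, a kinase-like protein needed for coenzyme Q synthesis, had 112, 106 and 82.7 FPKM in CD and 57.1, 94.0 and 82.0 in HFD. In CD_DSS the values were 59.7, 39.2 and 39.3, and in HFD_DSS 24.5, 42.1 and 33.1. All but CD_DSS 1 were under every library without DSS, and it fell by 1.16 (SE 0.17, limma adjusted p = 0.00215). Cycs, which encodes cytochrome c, fell by 0.41 (limma adjusted p = 0.0203), and Ucp2, an uncoupling protein that macrophages also express, rose by 0.54 (limma adjusted p = 0.0225).

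Of 44 assembly factors, 10 fell and 0 rose (median -0.15), led by Timmdc1 (-0.47, limma adjusted p = 0.00159), a complex I assembly factor that is also on the list of import genes. Of 77 proteins of the mitochondrial ribosome, 13 fell and 0 rose (median -0.14), such as Mrpl12 (-0.43, limma adjusted p = 0.00642). Of 22 genes of protein import, 6 fell and 0 rose (median -0.16), such as Timm10 (-0.48, limma adjusted p = 0.0179). Tomm40l (-0.27), named after its values were seen, is not counted as a fall, since it reached the level for testing in 4 libraries without DSS and 0 with it. Of 12 genes that copy and transcribe the mitochondrial genome, 11 did not pass. The other was Polg2, an accessory subunit of its DNA polymerase, with a log2 fold change of -0.38 and no test, since it reached the level in 5 libraries without DSS and 1 with it.

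Of 8 transcriptional regulators of mitochondrial genes that reached the level for testing, 1 fell and 1 rose. Esrra, an orphan nuclear receptor that acts on such genes, had 9.88, 11.2 and 12.5 FPKM in CD and 10.4, 10.1 and 10.8 in HFD. Under DSS it stood at 8.73, 7.93 and 6.66 on CD and at 5.63, 5.89 and 8.47 on HFD. All 6 libraries with DSS were under all 6 without it, and Esrra fell by 0.54 (SE 0.10, limma adjusted p = 0.00543). Ppargc1b, a coactivator, had 0.254 to 1.63 FPKM without DSS and 0.231 to 0.529 with it. It reached the level for testing through 3 libraries without DSS and 0 with it, so its log2 fold change of -0.43 (SE 0.14) is given with no test. Pprc1, a related coactivator, rose by 0.58 (SE 0.11, limma adjusted p = 0.00621), from 1.12 to 2.01 FPKM without DSS to 2.17 to 3.60 with it. Ppargc1a (-0.07), Nrf1 (0.04), Gabpa (-0.02), Gabpb1 (-0.15) and Yy1 (0.14) did not pass, and Perm1 did not reach the level for testing.

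Promoters were examined for the letters that these regulators are known to bind, in the RefSeq promoter table for GRCm38.p6, 250 bases before to 50 after each start. It matched 65 of the 79 nuclear members. The 250 bases before the start are shown for a gene with the core of the NRF1 motif near the start (Atp5k, chr5:108434400-108434649), for one with several motifs and the highest mean level of the nuclear members (Cox6a1, chr5:115348959-115349208), and for one with the motif of estrogen-related receptors (Atp5g3, chr2:73911327-73911576). All 3 lie on the minus strand and were picked from among members that fell, so no promoter of a member that was not called is shown. Capitals mark the motif letters found, on either strand.
Atp5k: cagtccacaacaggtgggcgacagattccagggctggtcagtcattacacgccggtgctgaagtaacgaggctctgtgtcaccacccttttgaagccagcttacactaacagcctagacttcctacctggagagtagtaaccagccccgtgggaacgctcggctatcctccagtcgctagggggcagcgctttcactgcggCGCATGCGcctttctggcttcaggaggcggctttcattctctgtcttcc
Cox6a1: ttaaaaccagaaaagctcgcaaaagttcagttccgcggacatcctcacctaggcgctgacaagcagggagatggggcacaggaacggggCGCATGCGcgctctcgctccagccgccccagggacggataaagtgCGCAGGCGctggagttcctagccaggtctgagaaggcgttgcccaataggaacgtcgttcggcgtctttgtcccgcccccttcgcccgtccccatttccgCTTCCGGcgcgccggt
Atp5g3: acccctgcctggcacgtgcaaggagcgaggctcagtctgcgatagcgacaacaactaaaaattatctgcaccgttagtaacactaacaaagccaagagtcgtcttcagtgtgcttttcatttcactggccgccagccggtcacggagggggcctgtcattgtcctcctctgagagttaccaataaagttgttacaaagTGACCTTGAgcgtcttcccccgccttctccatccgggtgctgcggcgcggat

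In Atp5k the capitals are CGCATGCG, the core of the NRF1 motif, which reads the same on both strands. In Cox6a1 they are the same core at base 90, its form with 1 free base (CGCANGCG) at base 135 and, at base 235, the reverse complement of CCGGAAG, a motif of the ETS family that includes GABP. In Atp5g3 they are the reverse complement of TCAAGGTCA, the motif of estrogen-related receptors, at base 199.

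Within the whole 300 bases and on both strands, CGCANGCG, which includes every CGCATGCG, was found in 25 of the 65 members (38.5%). It was in 19.9% of the 7984 tested genes with a promoter in the table and in 9.22% of all 27025 genes in it. CCGGAAG was in 24.6% of the members, 21.0% of the tested genes and 9.93% of all genes. TCAAGGTCA was in 3.08%, 0.363% and 0.466%, and AAGATGGC, a YY1 motif, in 15.4%, 5.71% and 3.19%. Apart from that pair, none of these motifs contains another. The GC content of the promoters was 58.0% for the members, 60.4% for the tested genes and 53.8% for all.

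Of the 42 matched members that fell with DSS, 38.1% held CGCANGCG, and of the 23 that were not called, 39.1%. The exact core CGCATGCG was in 9.52% of those that fell and 21.7% of those not called. For CCGGAAG the shares were 26.2% and 21.7%, and for AAGATGGC 11.9% and 21.7%. TCAAGGTCA was in 2 of the 42 and 0 of the 23. These shares describe letters in a window and were not tested.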

How the data were processed

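Liver RNA was sequenced in 12 libraries (from total RNA with a SMARTer kit for mRNA, as the labels' protocols state), and the deposited values are FPKM per gene and library, made by the authors on mm10, per the submitters' processing notes. Aligner, counter, annotation and strand setting are not given. The 4 nameless, empty columns of the table were not used. Whole fragments were recovered from the FPKM and the exon lengths of the mm10 GENCODE annotation, and about 97% of the values under 500 fragments lay within 0.02 of a whole number. Depth was 23.4 to 29.4 M fragments.

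Values were analysed as log2(FPKM + 1), which understates changes of low genes. One limma 3.58.1 model (R 4.3.3) with 4 group means was fitted to all 12 libraries and the 10806 genes with 1 FPKM in at least 3 libraries. Tests were two-sided, with Benjamini-Hochberg adjustment over those genes and a threshold of 0.05; a gene called lower fell and one called higher rose. The effect over both diets is the mean of the effects on each diet. The model was also run on simulated data with noise drawn independently for each gene. That run cannot show how libraries that deviate as a whole affect the calls.

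Members and gene lists were chosen with earlier results of these data known. Members were named by this rule: those called in any comparison (the 15 with the largest change where more than 30 were called), the highest in each complex and genome, isoform pairs, the lowest p where none was called, and catalytic subunits, except 1 member that is counted but not reported here by name. List genes were named only where called, at most 6 a list, except the regulators. Ndufa12, Cox7a2l, mt-Co3, mt-Nd4, mt-Nd5, Sdhc, Ndufb8, Atp5g2 and the isoforms Cox7b2 and Cox8c were named after their values were seen. Voom on the recovered fragments with the authors' library totals, adding the copies, and leaving out HFD 1, CD_DSS 1 and HFD_DSS 2 were alternatives chosen after seeing the data. The labels name no batch. Promoters came from the RefSeq table for GRCm38.p6.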

Additional observations from a re-analysis of the deposited data

How the results depend on the processing

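In no setting tried was a member called higher with DSS, and no named member changed sign past the threshold. The number of members that fell on CD was 2 in the report and 0 under TPM scaling, 0 with no filter on low values, 0 under a scaling to the nuclear genome, 0 from the 2 groups alone, 1 with a pseudocount of 0.1, 4 for genes averaging 5 FPKM or more and 23 without HFD 1, CD_DSS 1 and HFD_DSS 2. In the same order, 2.79, 1.34, 0.386, 1.5, 1.35, 2.72, 4.93 and 9.51% of all genes fell on CD. On HFD the number of members was 13 in the report and 3, 3, 5, 0 and 23 under TPM scaling, no filter, nuclear scaling, the 2 groups alone and an average of 5 FPKM or more. Of all genes, 3.1, 1.13, 0.332, 1.28, 0.657 and 6.5% fell on HFD, in that order. Leaving out 1 library gave 0 to 15 members on CD, 0 to 27 on HFD and 36 to 62 over both diets, where the other settings gave 39 (TPM scaling) to 56 (an average of 5 FPKM or more). The shares of all genes that fell without 1 library were 0.379 to 6.2% on CD, 0.0555 to 5.04% on HFD and 6.97 to 13.5% over both diets. Over both diets that share was 6.74% under TPM scaling and 17.3% at an average of 5 FPKM or more. The cause of these differences between settings was not tested. The other 3 comparisons had 0 members called in every setting. With the replicate number as a block, 0 members fell on CD, 4 on HFD and 42 over both diets, where 1.55, 1.67 and 9.74% of all genes fell. The replicate numbers are not shown to pair the libraries, since same-numbered libraries had deviations correlated at -0.356 to 0.258 (18 pairs), against -0.36 to 0.461 for the others. Of all genes called with DSS over both diets, 56.3% fell in the report, 41.7% under TPM scaling and 48.6% under nuclear scaling. On CD these shares were 58.2, 37.8 and 47.0%, and on HFD 64.2, 33.2 and 40.0%. With 3 libraries a group, few changes of about 0.3 on the log2 scale passed in 1 diet. The smallest change called among the members was -0.48 on CD (mt-Nd3) and -0.32 on HFD (Atp5d).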
